A study of Mus musculus with 24 samples.

Results

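The comparison described here sets the lungs of dnCREB mice against those of wild-type (WT) mice, both given phosphate-buffered saline (PBS). It uses 6 of the 24 arrays of the series, 3 from dnCREB-PBS lungs and 3 from WT-PBS lungs, chosen by their labels. The whole study measured RNA of lung and of the left ventricle of the heart on Affymetrix expression arrays, in WT and dnCREB mice given PBS or particulate matter (PM). All animals were CD-1 mice, 20 weeks old and labelled male. WT mice carried no transgene. The dnCREB mice carried a dominant negative form of CREB1 behind the alpha myosin heavy chain promoter, which is specific to heart muscle cells, and they serve as a model of cardiac failure. That promoter is meant for heart muscle cells, and muscle of the same kind also lines the pulmonary veins inside the lung. PM animals, used here to estimate the spread and as separate animals of each genotype, received 20 mg/kg of particles of 1.9 µm, with the lung taken after 36 h. The labels give no time for the PBS animals, and they do not say whether arrays of a group came from separate RNA preparations, so p-values measure the spread between these samples.

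CREB1 is a transcription factor that binds the cyclic AMP response element (CRE) in promoters and, once phosphorylated, recruits coactivators to switch on early response and metabolic genes. A dominant negative form blocks that activity, and in heart muscle this leads to dilation and failure. A failing left ventricle is known to raise the pressure in the pulmonary veins, and the lung can answer with vascular remodelling, matrix deposition, fluid clearance and inflammation.

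Values are log2 expression values, in which a difference of 1 is a doubling, and every difference is dnCREB minus WT. One probe set stood for each gene, and 11248 autosomal genes with a value above 4 in at least 3 of the 12 lung arrays were tested. The label of lung fitted its defining markers in the 6 PBS arrays, in which the surfactant gene Sftpc lay between 15.12 and 15.44 and the club cell secretoglobin Scgb1a1 between 15.41 and 15.76.

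Several arrays stood apart before any genotype was compared. Skeletal muscle and squamous epithelium RNA was high in dnCREB-PBS replicates 1 and 3 and low in the other 4 PBS arrays. Tnnc2, the fast muscle troponin C, read 1.89, 1.99 and 2.14 in WT-PBS and 11.99, 2.46 and 11.29 in dnCREB-PBS. Krt4, a keratin of oesophageal-type epithelium, read 3.04, 2.83 and 2.84 in WT-PBS and 12.49, 3.01 and 11.59 in dnCREB-PBS. In all, 26 genes lay at least 4 log2 units higher in both of those arrays than in each of the other 4. The 16 tested skeletal muscle markers averaged 4.17, 4.02 and 4.0 in WT-PBS replicates 1 to 3 against 9.28, 4.13 and 8.60 in dnCREB-PBS, and the 9 squamous markers 3.15, 2.88 and 2.88 against 8.82, 2.81 and 7.57. High skeletal muscle RNA was also found in WT-PM replicates 1 and 2 and dnCREB-PM replicate 3, which makes 5 such arrays. Leaving these out keeps all 3 WT-PBS arrays but only replicate 2 of dnCREB-PBS. Values given below without the 5 arrays therefore rest on 1 dnCREB-PBS array. Y-linked RNA marked all 3 WT-PBS lungs and 0 of 3 dnCREB-PBS lungs. Eif2s3y, a Y-linked translation factor, lay between 9.24 and 10.19 in WT-PBS and between 3.17 and 3.18 in dnCREB-PBS, and Xist, which coats the inactive X in female cells, read 2.95, 12.70 and 3.02 in dnCREB-PBS. Among the 6 PM lungs, Eif2s3y was high in WT-PM replicate 2 alone (8.43, against 3.17 to 3.39 in the other 5), and Xist lay between 11.72 and 12.52 in those 5. These values go against the single sex in the labels, and whether labels or samples were mixed was not tested. Sex-chromosome class and genotype cannot be told apart in this comparison, and X and Y genes were left out of it. WT-PBS replicate 1 was the array least like the rest, with a median correlation of 0.926 to the other 11 lung arrays against 0.958 to 0.967 for the other 5 PBS arrays.

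**Figure D1:**
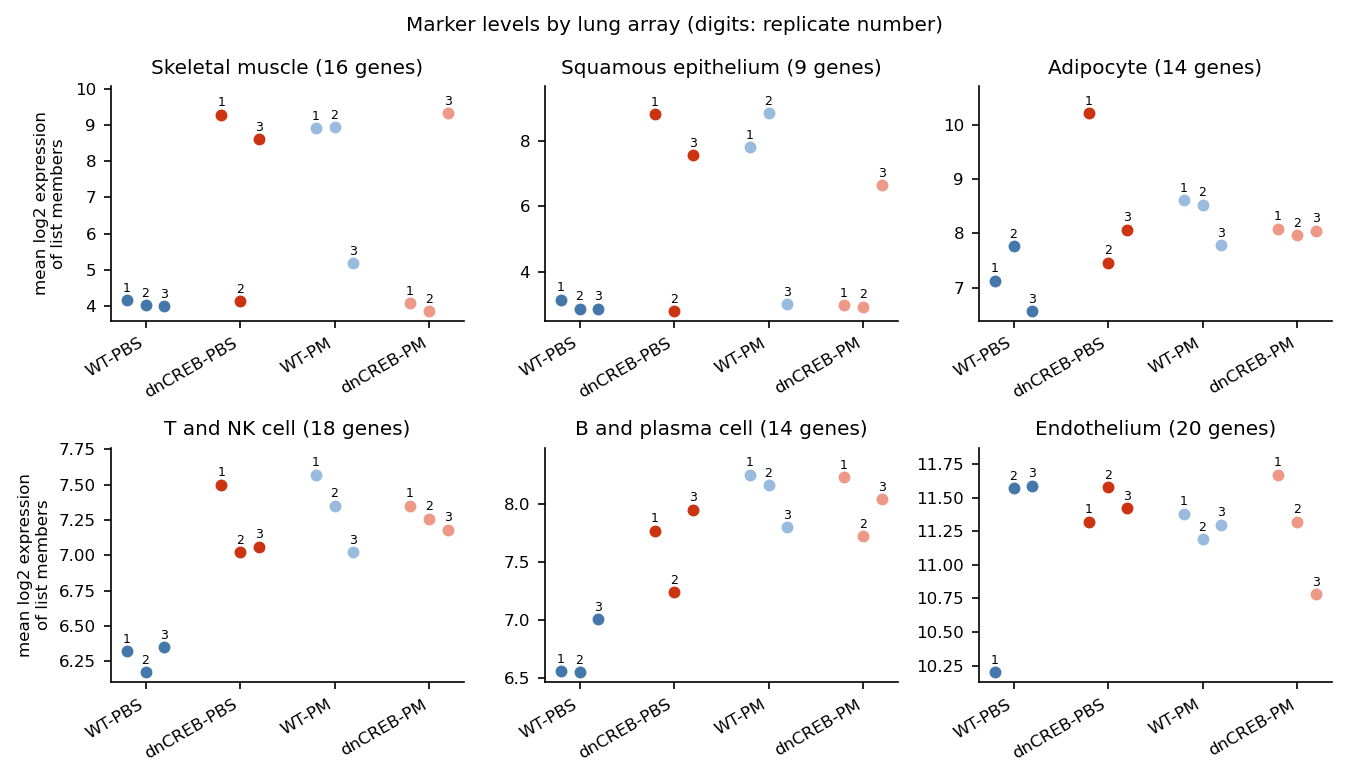
Mean log2 expression of 6 marker lists (vertical axes) in each of the 12 lung arrays, by group, with the replicate number beside each point and the number of genes in each title. Skeletal muscle and squamous markers are high in dnCREB-PBS replicates 1 and 3 and low in replicate 2, while T and NK cell markers lie lowest in the 3 WT-PBS arrays, between 6.17 and 6.35.

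One gene passed the test. Tdgf1, which encodes Cripto, a membrane co-receptor for Nodal in early development, read 5.02, 4.45 and 5.26 in WT-PBS lungs and 2.97, 3.2 and 2.97 in dnCREB-PBS lungs. All dnCREB arrays lay below all WT arrays and under the level of 4 used as the minimum. The means were 4.91 ± 0.41 and 3.05 ± 0.13 (SD, n = 3), a difference of -1.86 ± 0.19 (SE, limma adjusted p = 0.0109), at least 1.88-fold lower when dnCREB is set at 4. Tdgf1 was also under 4 after PM in both genotypes, between 3.25 and 3.39 in WT-PM and between 3.33 and 3.39 in dnCREB-PM. The 3 WT-PBS arrays were thus the high ones of the 12. They alone lay above 4, so Tdgf1 passed the filter on low values only through the group where it was high. Filter and test are therefore not independent for this gene. The limma call was lost without dnCREB-PBS replicate 1, 2 or 3 (adjusted p = 0.0605, 0.0561 and 0.1249) and with the fit on PBS arrays alone (0.4773). It was also lost with the skeletal muscle level (0.1333) or the Eif2s3y class (0.0821) as a covariate, and with Xist class and muscle level together (0.4075). The difference was -1.94 to -1.78 in each of these. Without the 5 arrays high in muscle RNA, which leaves 1 dnCREB-PBS array, it was -1.71. The Eif2s3y class varied within WT-PM alone. Every fit with that class, here and below, therefore rests on WT-PM replicate 2 and cannot separate the class from that array. Limma called 1 of 11248 genes, 0.00889%.

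Promoter sequences show where a full CRE lies relative to these genes. The motif TGACGTCA, which reads the same on both strands, was found in 508 of 32851 promoter windows of 250 bases before the start, 1.55%. Among the 16 genes with the smallest p (8 in each direction), 13 had a RefSeq window (GRCm38.p6) and 0 held the motif. That is near the share of all genes with a window, 478 of 27025 or 1.77%. Of the 29 tested genes of a list of CREB targets and immediate early genes, 24 had a window. The motif lay in 3 of these, Btg2, Dusp1 and Maff. Those 3 and Tdgf1 are printed 5′ to 3′, with the motif in capitals and none in Tdgf1, from chr1:134079156-134079405 (minus strand), chr17:26508473-26508722 (minus), chr15:79347270-79347519 (plus) and chr9:110946159-110946408 (minus).
Btg2: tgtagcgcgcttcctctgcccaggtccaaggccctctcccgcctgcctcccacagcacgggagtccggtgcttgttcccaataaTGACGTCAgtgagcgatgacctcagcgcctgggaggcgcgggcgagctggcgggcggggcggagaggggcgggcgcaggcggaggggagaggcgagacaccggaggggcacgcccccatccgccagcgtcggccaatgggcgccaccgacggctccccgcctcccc
Dusp1: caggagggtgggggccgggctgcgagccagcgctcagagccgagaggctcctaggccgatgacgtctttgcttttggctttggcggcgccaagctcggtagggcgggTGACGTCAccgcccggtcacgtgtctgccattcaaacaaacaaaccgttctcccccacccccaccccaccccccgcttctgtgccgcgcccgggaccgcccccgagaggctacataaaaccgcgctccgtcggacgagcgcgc
Maff: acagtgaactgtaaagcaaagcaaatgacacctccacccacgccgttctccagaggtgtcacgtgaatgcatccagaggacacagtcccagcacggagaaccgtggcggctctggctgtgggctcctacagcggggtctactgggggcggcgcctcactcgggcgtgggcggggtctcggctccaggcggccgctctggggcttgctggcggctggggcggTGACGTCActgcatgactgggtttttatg
Tdgf1: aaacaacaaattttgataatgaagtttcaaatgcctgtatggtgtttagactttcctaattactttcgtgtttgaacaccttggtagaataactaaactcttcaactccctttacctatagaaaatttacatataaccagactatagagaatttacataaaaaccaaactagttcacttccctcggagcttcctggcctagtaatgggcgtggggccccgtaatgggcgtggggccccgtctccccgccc
The centre of the motif lay 162 bases before the start in Btg2, 139 in Dusp1 and 25 in Maff. Btg2, an antiproliferative gene, read 8.70, 9.98 and 10.17 in WT-PBS and 10.18, 9.39 and 10.28 in dnCREB-PBS (difference 0.33 ± 0.40 SE), and Dusp1, a phosphatase of MAP kinases, 12.48, 13.37 and 13.64 against 13.04, 13.91 and 13 (0.15 ± 0.36). Maff, a small Maf transcription factor, read 5.33, 6.46 and 6.30 against 4.89, 5.31 and 4.78 (-1.03 ± 0.42, limma adjusted p = 0.8740). Btg2 and Dusp1 overlapped between the genotypes, while all 3 dnCREB arrays lay below all 3 WT arrays for Maff. A match is a description of the letters and not of binding.

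Creb1, the gene whose dominant negative form was introduced, read 11.33, 11.10 and 11.08 in WT-PBS and 10.87, 11.01 and 11.06 in dnCREB-PBS, a difference of -0.19 ± 0.24 (SE, limma adjusted p = 0.9055). The dnCREB arrays lay just below the WT arrays without overlap. Of its 6 probe sets 4 were tested, with differences of 0.27, -0.13, 0.03 and -0.19. The probe set that marks the transgene in the left ventricle, 2.75 to 3.29 in WT-PBS and 9.18 to 12.00 in dnCREB-PBS hearts, had lung group means between 3.41 and 3.73. It was under the minimum and not tested in lung, so lung genotypes could not be checked with it. Crem, a relative of CREB with repressor isoforms, read 8.12, 7.76 and 7.31 in WT-PBS and 6.98, 7.17 and 6.99 in dnCREB-PBS. Its groups did not overlap, and the difference was -0.68 ± 0.21 (adjusted p = 0.7335), against 1.55 in the left ventricle (adjusted p = 0.0377). The CREB coactivators Crtc2 (-0.27, adjusted p = 0.8757) and Crtc3 (0.21, adjusted p = 0.9316) overlapped, and Crtc3 reversed to -0.37 without WT-PBS replicate 1. Atf1 and Crtc1 did not pass the filter on low values.

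Over all genes, 611 had an unadjusted p under 0.05, 5.43%, against 562 expected if none differed. Of these 271 were higher (2.41%) and 340 lower (3.02%) in dnCREB. The groups did not overlap for 652 genes higher (5.80%) and 888 lower (7.89%), 13.7% together, which is the background for the counts of list members that follow. The median difference was -0.03, the median size of a difference 0.19 and the median SE 0.24, and 279 genes differed at least 2-fold in either direction.

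**Figure D2:**
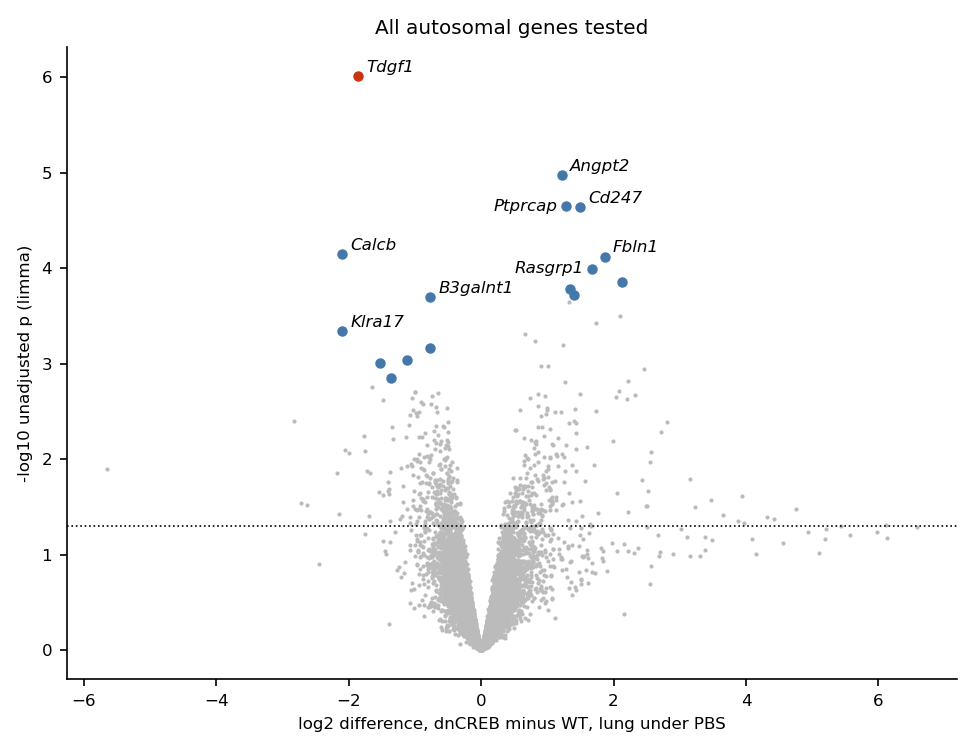
Log2 difference, dnCREB minus WT under PBS (horizontal), against -log10 of the unadjusted limma p (vertical) for the 11248 genes tested, with the 16 genes of smallest p by direction in colour and red marking the called gene. Tdgf1, at -1.86, is the only gene past the adjusted threshold, and the dotted line marks an unadjusted p of 0.05.

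The genes with the next smallest p higher in dnCREB were vascular, lymphocyte and matrix genes, none of them called. Angpt2, the Tie2 ligand that endothelium releases in vessel remodelling, read 6.06, 5.99 and 5.90 in WT-PBS and 7.28, 7.32 and 7.0 in dnCREB-PBS (1.22 ± 0.16 SE, limma adjusted p = 0.0600). The groups lay clear of each other, with little spread within either. Emcn, an endothelial sialomucin, read 8.46, 9.31 and 9.09 against 10.33, 10.32 and 10.25 (1.34 ± 0.24, adjusted p = 0.2065), and Fbln1, fibulin-1 of the matrix, 6.51, 7.81 and 7.28 against 9.06, 9.35 and 8.79 (1.87 ± 0.31, adjusted p = 0.1423). A second tested probe set of Fbln1 gave 0.75. Of the others, 3 are T cell or pan-lymphocyte genes, which read lower in every WT-PBS array than in every dnCREB-PBS array. Ptprcap, which binds the phosphatase CD45, gave 1.28 ± 0.18 (adjusted p = 0.0649), Cd247, the zeta chain of the T cell receptor, 1.49 ± 0.21 (adjusted p = 0.0649), and Rasgrp1, which relays T cell receptor signals to Ras, 1.67 ± 0.28 (adjusted p = 0.1639). Pou2af1, a B cell coactivator, gave 2.13 ± 0.37 (adjusted p = 0.1961) and Lrrc17, a secreted leucine-rich repeat protein, 1.40 ± 0.26 (adjusted p = 0.2065).

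Genes lower in dnCREB were mixed in function. Calcb, the beta form of the vasodilator peptide CGRP, read 6.33, 4.53 and 5.18 in WT-PBS and 3.32, 3.26 and 3.15 in dnCREB-PBS (-2.11 ± 0.34, adjusted p = 0.1423). As the dnCREB arrays lay under 4, the values give at least 2.54-fold lower, with dnCREB set at 4. All PM arrays lay under 4 too, so Calcb, like Tdgf1, passed the filter only through WT-PBS. Klra17, a receptor of the Ly49 family whose members are alike in sequence and may share probes, read 7.30, 7.37 and 8.16 against 5.04, 6.43 and 5.09 (-2.09 ± 0.43, adjusted p = 0.3395). Hpx, which binds free haem in plasma, gave -1.53 ± 0.34 (adjusted p = 0.5240), Sphk1, which makes sphingosine 1-phosphate, -1.36 ± 0.32 (adjusted p = 0.6223), and the antioxidant Srxn1 -1.12 ± 0.25 (adjusted p = 0.5103). B3galnt1, a glycosyltransferase, gave -0.77 ± 0.14 (adjusted p = 0.2065) and Eps8l1, a relative of an actin regulator, -0.77 ± 0.17 (adjusted p = 0.4094). A second tested probe set of Eps8l1 gave -0.21 ± 0.28, with groups that overlapped.

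**Figure D3:**
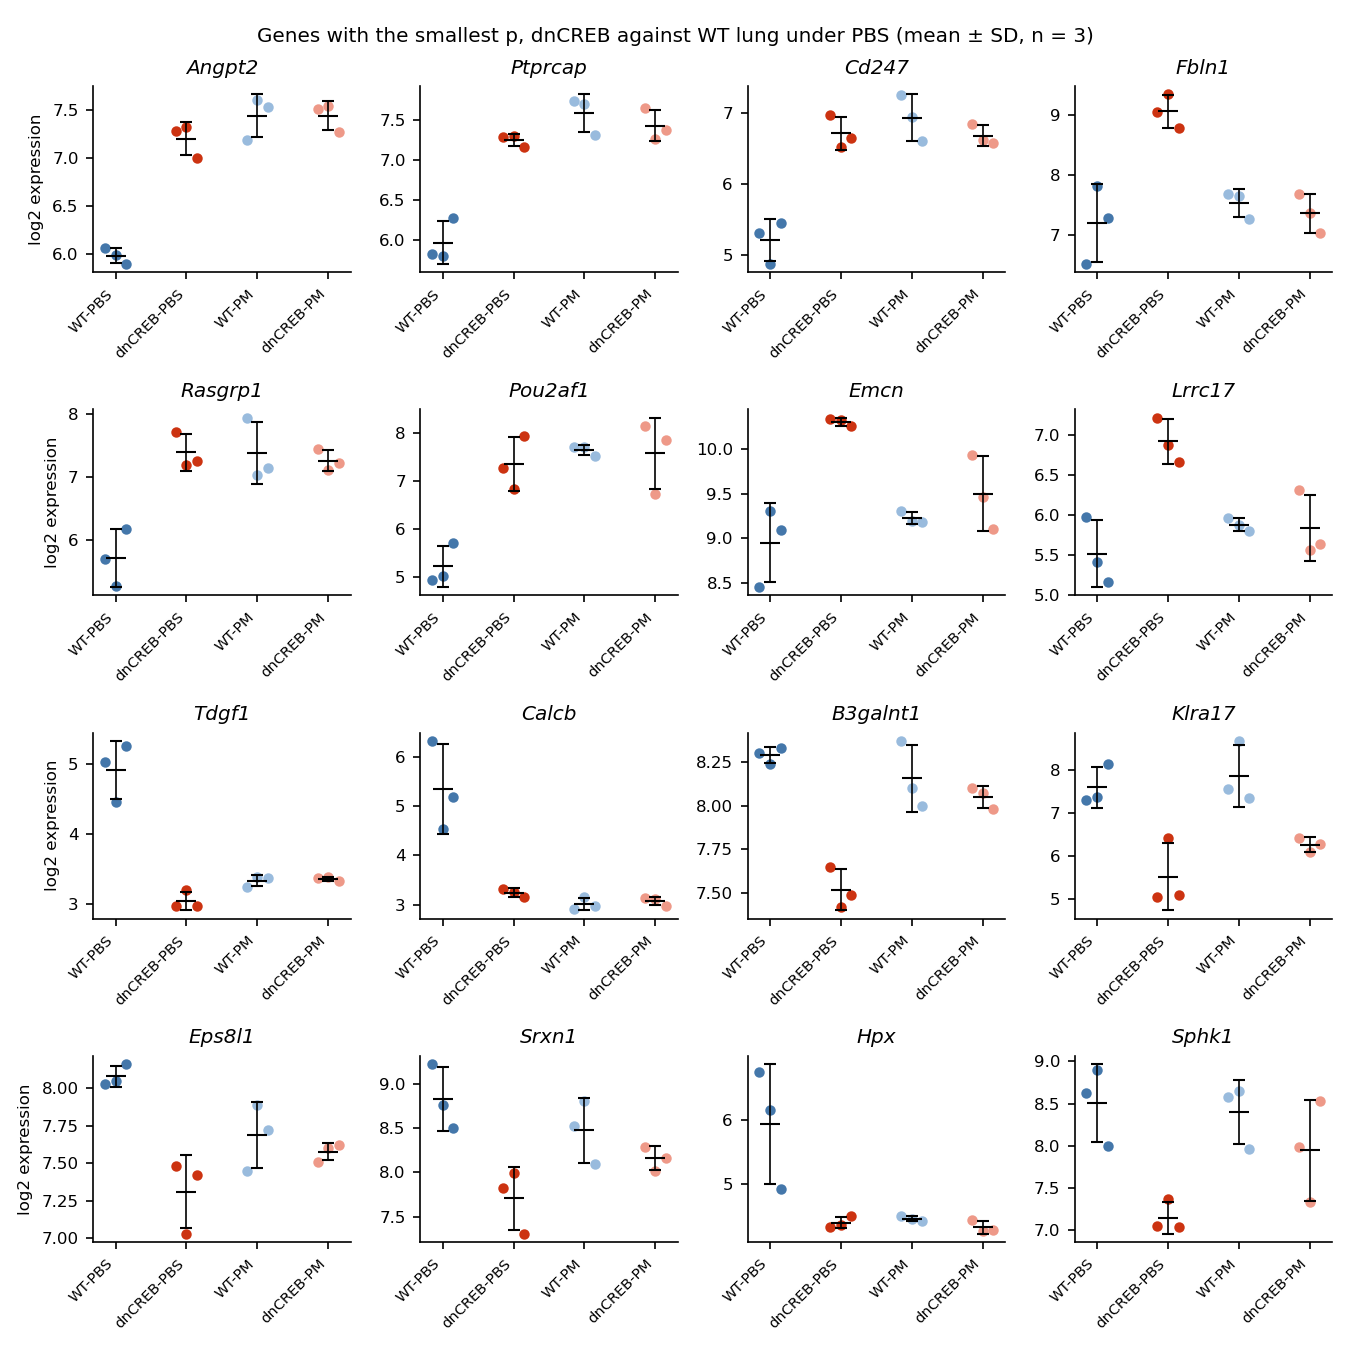
Log2 expression (vertical axes) of the 16 genes with the smallest p under PBS, 8 higher and 8 lower in dnCREB, for each array in the 4 lung groups, with bars for mean ± SD, n = 3. Angpt2 lies between 5.90 and 6.06 in WT-PBS and above that in the other 9 arrays, and Tdgf1 lies above 4 only in WT-PBS.

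For several of these genes the WT-PBS arrays were the ones that differed from the rest of the lung arrays, from which they also differed in sex-chromosome class, as 8 of the other 9 arrays had no high Eif2s3y. All 6 PM arrays, WT and dnCREB, lay above all 3 WT-PBS arrays for Angpt2, Ptprcap, Cd247, Rasgrp1 and Pou2af1, and below them for Tdgf1, Calcb, Eps8l1 and Hpx. Those 6 include WT-PM replicate 2, the array outside WT-PBS with high Eif2s3y (8.43). Its Y-linked RNA matched WT-PBS only in part. Kdm5d read 6.81 there, against 6.90 to 7.14 in WT-PBS, but Uty read 3.39, against 7.01 to 8.27. The part of sex-chromosome class in these differences was not tested. In 9 of the 16 genes WT-PBS lay outside the range of the other 9 arrays, and in 6 dnCREB-PBS did. Tdgf1 counts in both, as its dnCREB-PBS arrays (2.97 to 3.2) lay just under the PM arrays (3.25 to 3.39). Over the 1540 genes whose PBS groups did not overlap, WT-PBS lay outside in 360 (23.4%) and dnCREB-PBS in 327 (21.2%). Fbln1, Emcn and B3galnt1 were among those where dnCREB-PBS stood apart.

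The same genotype comparison under PM uses 6 other arrays. Limma called 0 genes there (441 at an unadjusted p under 0.05, 3.92%, of them 1.30% of all genes higher and 2.62% lower, with the smallest adjusted p 0.9087), and groups did not overlap for 2.84% of genes higher and 5.48% lower. Of the 611 genes with an unadjusted p under 0.05 under PBS, 305 had the same sign under PM, 49.9%, against 46.6% of all genes, and of those under 0.05 in both, 20 had the same sign and 19 the opposite. For 7 of the 16 leading genes the sign was the same, and 1 had groups that did not overlap in the same direction. That gene was Klra17, at 7.56, 8.69 and 7.36 in WT-PM and 6.43, 6.09 and 6.28 in dnCREB-PM (-1.60, adjusted p = 0.9087). With the Eif2s3y class as a covariate its PBS difference of -2.09 was -0.86, a fit that rests on WT-PM replicate 2, at 8.69. Without the 5 arrays high in muscle RNA, which leaves 1 dnCREB-PBS array, it was -1.19. The interaction of genotype and PM called 0 genes in limma, with 578 (5.14%; 2.35% above 0 and 2.79% below) at an unadjusted p under 0.05, and Tdgf1 had the smallest p (1.89, adjusted p = 0.2631).

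**Figure D4:**
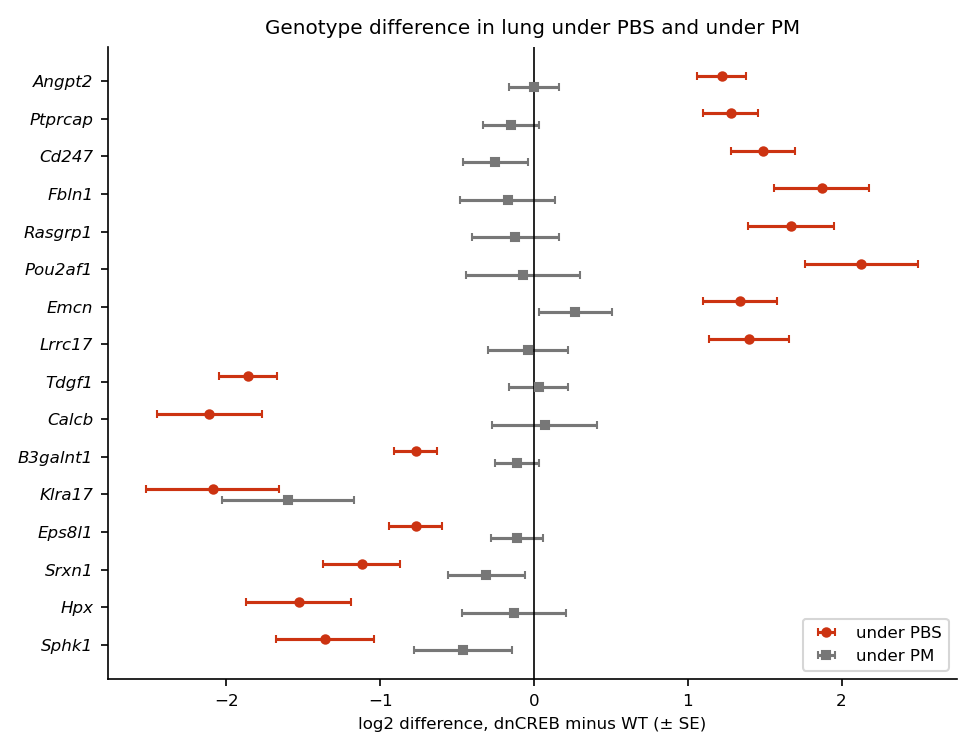
Log2 difference, dnCREB minus WT, with its SE (horizontal), for the 16 genes of smallest p under PBS, as circles under PBS and squares under PM. Most squares lie near 0, and Klra17 keeps a lower value at -1.60.

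In the left ventricle, where the same genotypes differed in 18.5% of 9661 genes, 6 of the 16 were measured. Fbln1 was higher there too (1.31, adjusted p = 0.0230), and B3galnt1, lower in lung, was higher (1.61, adjusted p = 0.0305). The difference between the tissues was not tested.

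T and NK cell markers had the largest share of members that lay apart among the lists described. Of 18 tested, 13 (72.2%) were higher in all 3 dnCREB-PBS arrays than in all WT-PBS arrays and 0 lower, against 5.80% and 7.89% of all genes, with 11 at an unadjusted p under 0.05 and a median of 0.81 against -0.03. Limma called 0 of them. Cd5, a coreceptor of T cells, read 3.34, 3.21 and 3.05 in WT-PBS and 5.96, 4.69 and 5.24 in dnCREB-PBS (2.09 ± 0.41, adjusted p = 0.2755), at least 2.46-fold higher with WT set at 4, since its arrays lay under that level. Cd8b1, of cytotoxic T cells, read 3.51, 3.98 and 4.43 against 7.82, 5.12 and 5.61 (2.21 ± 0.56, adjusted p = 0.6223), and Ccl5, a chemokine of activated lymphocytes, 7.23, 8.39 and 8.06 against 9.19, 8.81 and 9.30 (1.20 ± 0.32, adjusted p = 0.6223). Their groups did not overlap. Of 7 listed markers of immature T cells of the thymus 2 were tested, Cd8b1 itself and Cd1d1 (0.19, overlapping), and their mean was 5.36, 5.59 and 5.96 in WT-PBS and 7.88, 6.14 and 6.49 in dnCREB-PBS. The part of such cells was not tested. The cytotoxic granule genes Prf1 (1.16) and Nkg7 (0.80) and the receptor chain Cd3g (1.43) also stood higher. In bulk samples fewer cells of a type and less RNA per cell cannot be told apart. The mean of the list was 6.32, 6.17 and 6.35 in WT-PBS, 7.50, 7.02 and 7.06 in dnCREB-PBS, 7.57, 7.35 and 7.02 in WT-PM and 7.35, 7.26 and 7.18 in dnCREB-PM. The WT-PBS arrays were thus the lowest of the 12. In 11 of the 18 members all 6 PM arrays lay above WT-PBS, against 9.01% of all genes. Without the 5 arrays high in muscle RNA, which leaves 1 dnCREB-PBS array, the median was 0.78.

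B and plasma cell markers were higher in 14 of 14 by sign, with a median of 0.78, and 5 (35.7%) did not overlap and 0 were lower. The immunoglobulin receptor Fcmr read 4.97, 6.20 and 6.75 in WT-PBS and 7.22, 7.30 and 8.19 in dnCREB-PBS (1.60 ± 0.49, adjusted p = 0.7539). The complement receptor Cr2 gave 1.37, the heavy chain Ighm 1.52 and the regulator Spib 0.72. The median was 0.33 without the 5 arrays high in muscle RNA. Of 8 MHC class II genes 3 did not overlap (median 0.53, and 0.27 without the same 5 arrays), as with H2-Aa at 0.68.

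Of 15 club and mucous cell genes, 6 (40.0%) were higher and 2 (13.3%) lower without overlap, with a median of 0.18. Scgb3a1, a secretoglobin, read 11.26, 9.14 and 10.80 in WT-PBS and 12.95, 12.16 and 12.21 in dnCREB-PBS (2.04 ± 0.52, adjusted p = 0.6223). Bpifa1, a host defence protein of the airway lining, read 12.18, 9.59 and 9.96 against 14.19, 13.29 and 12.67 (2.81 ± 0.78, adjusted p = 0.6865) and Bpifb1 8.57, 8.43 and 8.06 against 11.04, 9.36 and 10.93 (2.09 ± 0.52, adjusted p = 0.6223). Lactotransferrin, Ltf, was higher (2.57 ± 0.80, adjusted p = 0.7765) and the resistin-like Retnla lower (-1.55 ± 0.58). Of 17 type II genes 0 were higher and 1 lower without overlap (median -0.02, and -0.21 without WT-PBS replicate 1), the collectin Sftpd at 13.23, 13.15 and 13.27 in WT-PBS and 12.91, 12.48 and 12.72 in dnCREB-PBS (-0.52 ± 0.16, adjusted p = 0.7765). Of 16 type I genes 2 were higher and 0 lower, among them Igfbp2 (1.05), and of 22 cilia genes 0 did not overlap (median -0.23).

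**Figure D5:**
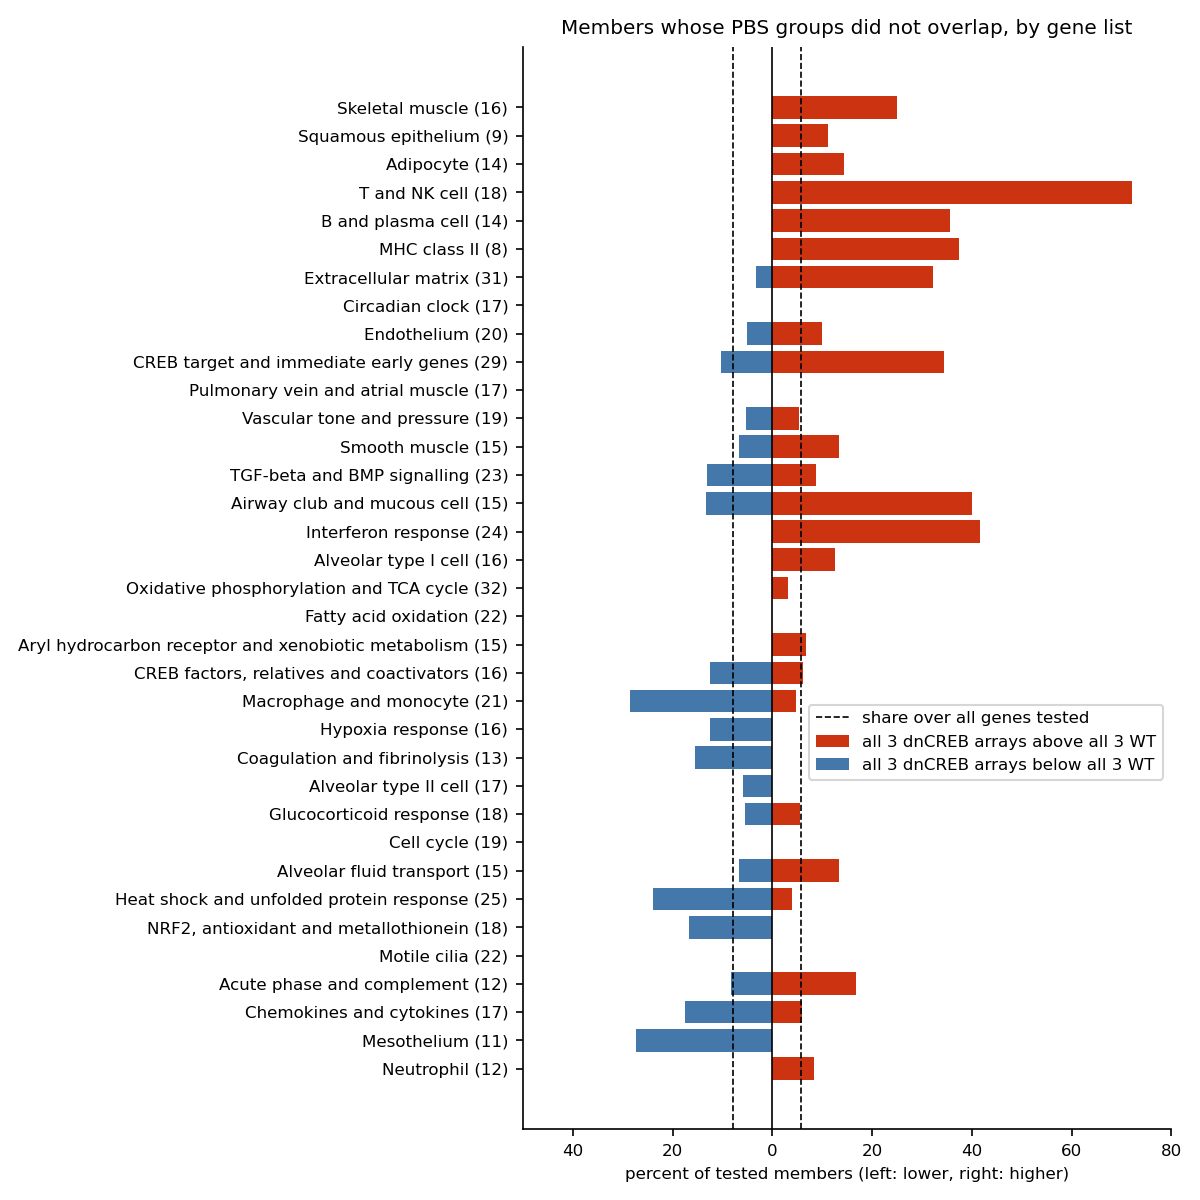
Percent of tested members of each gene list (number in parentheses) whose PBS groups did not overlap, higher in dnCREB to the right in red and lower to the left in blue, ordered by median difference, for lists of 8 or more tested members, with dashed lines at the shares of all genes, 5.80% and 7.89%. T and NK cell markers reach furthest right at 72.2%.

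Of 31 extracellular matrix genes 10 (32.3%) were higher and 1 lower without overlap, with a median of 0.36 (0.23 without WT-PBS replicate 1 and 0.60 without replicate 3). Fbln5, of elastic fibres, read 10.11, 10.58 and 10.21 in WT-PBS and 10.99, 11.54 and 11.29 in dnCREB-PBS (0.98 ± 0.26, adjusted p = 0.6257). The gelatinase Mmp2 gave 0.92 and the collagen Col14a1 1.08, while the crosslinker Lox gave -1.73 and the proteoglycan Vcan -1.41. Fibulin-1 belongs here too. Endothelial genes had a median of 0.29, with 2 of 20 higher and 1 lower without overlap, and the sign turned to -0.19 without WT-PBS replicate 1 (0.54 and 0.58 without replicates 2 and 3), whose mean for the list was 10.20 against 11.32 to 11.59 in the other 5 PBS arrays. Vascular tone genes were 1 higher and 1 lower of 19, with a median of 0.25 that was -0.15 without the same array. The lower one was Npr3, the natriuretic peptide clearance receptor, at 10.79, 11.73 and 11.88 in WT-PBS and 9.37, 9.66 and 10.05 in dnCREB-PBS (-1.77 ± 0.52, adjusted p = 0.7335). Of 15 genes of alveolar fluid transport, 2 were higher and 1 lower, with the water channel Aqp3 at 1.43 ± 0.42 (adjusted p = 0.7193) and the pump regulator Fxyd1 at 0.54.

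Among the 29 CREB targets and immediate early genes, 10 (34.5%) were higher and 3 (10.3%) lower without overlap. The median was 0.28, which was 0.02 without WT-PBS replicate 1, 0.07 with array weights and 0.46 with the muscle level as a covariate. The direction did not hold under PM, where the median was -0.24. There 0 were higher and 2 lower without overlap, against 2.84% and 5.48% of all genes. Egr1, an early growth response factor, read 8.64, 8.06 and 8.45 in WT-PBS and 10.26, 10.21 and 9.89 in dnCREB-PBS (1.74 ± 0.46, adjusted p = 0.6223). Its relative Egr3 gave 0.70 and the matricellular Ccn1 1.05. The orphan receptor Nr4a3 (-0.66, at least 1.43-fold lower with dnCREB set at 4) and the phosphodiesterase Pde4b (-0.91) stood lower, and of these Pde4b overlapped.

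Interferon response genes were higher without overlap in 10 of 24 (41.7%) and lower in 0, with a median of 0.17 (0.91 with the Eif2s3y class as a covariate, 0.09 without the 5 arrays high in muscle RNA). The proteasome subunit Psmb8 (0.47), Ifit2 (0.81) and the GTPase Iigp1 (0.83) are examples. Macrophage genes were 1 higher and 6 (28.6%) lower of 21 with a median of 0.01 (-0.19 without WT-PBS replicate 1, -0.21 with the muscle level and 0.35 with the Eif2s3y class as a covariate), Mpeg1, a pore-forming protein, at -0.42, and the scavenger receptor Marco at 1.22, at least 1.36-fold higher with WT set at 4. Neutrophil genes had a median of -0.60 (0.00 without WT-PBS replicate 3, 1.38 with the Eif2s3y class as a covariate). That covariate value rests on WT-PM replicate 2, whose mean for the list was 10.59, against 8.91 in replicate 1 and 8.65 in replicate 3. Of 12, 1 was higher without overlap, Ltf, and 0 lower, and the alarmin S100a8 overlapped at -0.90.

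Stress defence genes lay lower more often than higher. Of 18 NRF2 and antioxidant genes 0 were higher and 3 (16.7%) lower without overlap, and 3 had an unadjusted p under 0.05 (median -0.20). Gclc, the catalytic subunit of glutathione synthesis, read 11.79, 11.56 and 11.06 in WT-PBS and 10.68, 10.85 and 10.81 in dnCREB-PBS (-0.69 ± 0.21). Glutathione reductase Gsr gave -0.51 and the modifier subunit Gclm -0.33. Of 25 heat shock and unfolded protein response genes 1 was higher and 6 (24%) lower, with 4 at an unadjusted p under 0.05 (median -0.19), among them Hsph1 (-1.07), Sdf2l1 (-0.93), Creld2 (-0.65) and Manf (-0.52). Mesothelial markers had a median of -0.44 (-0.11 without WT-PBS replicate 1, 0.64 with the Eif2s3y class), with 3 lower and 0 higher of 11, as with Bnc1 at -1.0. In the acute phase and complement list, 2 were higher and 1 lower of 12. The lower one, the protease inhibitor Serpina3n, read 8.42, 10.37 and 10.22 in WT-PBS and 7.81, 7.63 and 7.59 in dnCREB-PBS (-1.99 ± 0.63, adjusted p = 0.7765).

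The 16 skeletal muscle genes had a median of 3.56, 0.03 without the 5 arrays, the 9 squamous genes 2.90 and -0.02, and the 14 adipocyte genes 1.43 and 0.20 (0.31 without dnCREB-PBS replicate 1, 0.64 with the muscle level as a covariate). Adipocyte markers were highest in dnCREB-PBS replicate 1 (a mean of 10.22), while replicate 3 (8.07) lay near the PM arrays low in muscle RNA. The adipokine Adipoq read 6.99, 8.01 and 3.56 in WT-PBS and 11.44, 7.33 and 9.25 in dnCREB-PBS (3.15), Car3 gave 2.72, Retn 2.55 (at least 4.58-fold higher with WT set at 4) and the fat cell regulator Pparg 0.80. Myh1, a fast muscle myosin, gave 6.11 ± 2.75 and Krt13 5.98 ± 2.82. These fitted values give no fold, as only 2 of the dnCREB-PBS arrays lay above 4. All WT-PBS arrays lay under 4, and dnCREB-PBS replicate 2 lay with them for both genes. The part of this RNA in the other differences was not tested. Nppa, the atrial natriuretic peptide that lung venous muscle also makes, read 6.36, 4.93 and 7.64 in WT-PBS and 13.83, 6.31 and 6.5 in dnCREB-PBS. Replicate 1 alone was high, and the difference was 2.57 ± 1.58. The 17 tested genes of pulmonary vein and atrial muscle had a median of 0.25 (-0.29 without the 5 arrays high in muscle RNA). Without overlap 0 were higher and 0 lower. Their mean was 8.21, 7.98 and 8.21 in WT-PBS and 10.15, 7.77 and 7.64 in dnCREB-PBS. Hypoxia, clock, cell cycle, oxidative phosphorylation and fatty acid oxidation lists held at most 1 higher and 2 lower members without overlap each. The lists of smooth muscle (2 higher and 1 lower of 15), TGF-beta and BMP signalling (2 and 3 of 23), chemokines and cytokines (1 and 3 of 17), coagulation (0 and 2 of 13) and glucocorticoid response (1 and 1 of 18) had medians of 0.23, 0.20, -0.27, 0.01 and -0.02.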

How the data were processed

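The log2 values were made by the authors with GCRMA, per the submitters' processing notes, which give no version, and were deposited per probe set. GCRMA corrects background by probe sequence and normalizes between arrays. Of 45037 probe sets, 34945 matched 1 symbol, 932 several and 9160 none. Each of 18193 genes was represented by its probe set of highest mean over all 24 arrays. Genes above 4 in at least 3 of 12 lung arrays were kept, and 352 X and Y genes of the 11600 were left out. The 12 lung arrays were fitted as 4 group means with limma 3.58.1 in R 4.3.3 (two-sided, Benjamini-Hochberg, adjusted p under 0.05). Tables and plots used Python 3.11.15, pandas 2.3.3 and matplotlib 3.10.9. Arrays give no counts, so their number limits precision. Named are called genes, filled up to 8 by smallest p in each direction, the smallest p in each described list up to a fixed number, and Creb1, Crem, Atf1 and Crtc1 to Crtc3, with predicted genes skipped. Btg2, Cd1d1, Dusp1, Tnnc2, Sftpc and Scgb1a1 fall outside that rule. Alternatives covered scaling, filter, probe set, covariates, array weights and single arrays left out. Members and lists were chosen with earlier results of these data known. The fit was tested on simulated data. It found 47 of 100 genes changed by 1 log2 unit and 90 of 100 changed by 2, with 11 false calls.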

Additional observations from a re-analysis of the deposited data

Results flagged for a closer look

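Pparg and C1ra had genotype differences that ran one way in all PBS arrays and the other way in all PM arrays of lung. For Pparg, the fat cell regulator, the difference was 0.80 under PBS and -0.58 under PM. For C1ra, a complement protease, it was 0.37 under PBS and -0.26 under PM. The difference for B3galnt1 was -0.77 in lung and 1.61 in left ventricle, both under PBS. Pparg and C1ra were among the genes tested for an interaction of genotype and PM, where limma called 0 genes. The difference between tissues was not tested. Xist, left out of the comparison with the other X genes, read 12.70 in dnCREB-PBS replicate 2, a mouse labelled male, against 2.15 to 2.72 in WT-PBS. It was as high in 5 of the 6 PM lungs (11.72 to 12.52), also labelled male, and whether labels or samples were mixed was not tested.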

How the results depend on the processing

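The number of genes called under PBS was 1, and 2 with quantile normalization or no filter, and 3 with centred arrays or with X and Y genes kept. It was 0 with a stricter filter, which left Tdgf1 out of the test, with the PBS arrays alone or with the muscle level as a covariate. It was 15 with the Eif2s3y class (which rests on WT-PM replicate 2) and 156 with array weights, where WT-PBS replicate 1 weighed 0.12 and all 16 leading genes were called. Without the 5 arrays high in muscle RNA it was 0, with 1 dnCREB-PBS array assumed to vary like the others, and with Xist class and muscle level together, a choice made after seeing the data, 0. Leaving out single arrays gave 0 to 6. Deviations from the group means correlated at 0.10, 0.03 and -0.09 between same-numbered WT-PBS and dnCREB-PBS arrays. These values show no pairing by number, though so few arrays cannot settle it. With the replicate block 2 genes were called. PM gave 0 throughout. The interaction gave 1 with X and Y genes kept, 191 with the Eif2s3y class and 0 to 1 leaving out arrays. Reversed signs were Crtc3 (-0.34 with array weights, -0.37 to 0.55 leaving out single arrays, the lowest without WT-PBS replicate 1), Myl1 (-0.17), Sprr3 (-0.06), Nppa (-0.00) and Mybphl (-0.11) without the 5 arrays, Mybphl (-0.27 to 1.33) leaving out single arrays, the lowest without dnCREB-PBS replicate 1, Marco (-0.25), Creld2 (0.02) and Hsph1 (0.06) with both covariates, and Mpeg1 (0.20), S100a8 (0.37) and Bnc1 (0.02) with the Eif2s3y class. The causes were not tested.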
